A study of Mus musculus with 10 samples.

Results

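Metalloproteinases are zinc enzymes that cut proteins outside the cell. Matrix metalloproteinases (the Mmp genes) degrade collagens, laminins and other matrix and act on cytokines, the membrane-bound ADAM proteins shed growth factors, cytokines and receptors from the cell surface, and the secreted ADAMTS enzymes cut proteoglycans, procollagens and other matrix proteins. Most are made as inactive precursors, and the tissue inhibitors of metalloproteinases (the Timp genes) block the active enzymes. The liver uses this system in fibrosis, regeneration and tumour invasion. Here the family was taken as every gene of the deposited table with an Mmp, Adam or Adamts symbol followed by a number (and for Mmp and Adam an optional a or b) or with a symbol from Timp1 to Timp4. These were 79 of 34745 genes, namely 23 Mmp, 33 Adam, 19 Adamts and 4 Timp genes.

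The study sequenced RNA of Hepa1-6, a wild-type mouse hepatoma line. The 5 untreated libraries and the 5 co-culture libraries came from this line grown in medium with serum, and the latter had spent 48 h with cytotoxic (CD8+) T cells, which recognise and lyse infected or transformed cells. The T cells came from spleens of male C57/BL6 mice 6 to 8 weeks old and had been activated for 5 days with antibodies to CD3 and CD28, diluted 1 in 2000. A wash meant to take off floating cells preceded RNA extraction, so attached cells of any type stayed in. Whether libraries of a group came from separate cultures is not stated, and p-values therefore refer to the spread among the libraries alone. The comparison asks how expression in the washed culture differs after contact with killer T cells.

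Totals were 12922263 to 17100662 counts per library, and the 20 pairs of libraries within a group differed by more than sampling noise (chi-square per degree of freedom from 6.72 to 15.5). Of 14 hepatocyte and fetal liver markers, the epithelial keratin gene Krt8 was at 1116 ± 90.5 CPM (counts scaled to library size, mean ± SD, n = 5) in untreated cells. Krt8, Krt19 and Afp, the fetal relative of albumin, fell by 0.25, 0.81 and 0.36 on the log2 scale. The defining hepatocyte genes Alb, Hnf4a, Apob, Fgb and Serpina1a had 0 counts in all untreated libraries, where 3 counts over the group, the limit that a count of 0 allows, correspond to 0.0388 CPM. After co-culture they had 4, 1, 3, 0 and 0 summed counts, and Trf, which encodes transferrin, went from 0.025 ± 0.0559 to 3.69 ± 0.892 CPM. Of 16 T cell markers, 6 had 0 counts in all 10 libraries (Cd3e, Cd3d, Cd8a, Cd2, Prf1 and Ifng). Another 5 had 0 in untreated cells and a few after co-culture, with 8 summed counts of Thy1, 4 of Cd3g, 3 of Zap70, 2 of Cd8b1 and 1 of Gzmb. Lck was the 1 marker of this list with enough counts to be tested, and it fell by 0.65 on the log2 scale. The list summed to 6.85 to 10.5 CPM without and 5.12 to 7.18 CPM with T cells, and most of that sum was Lck, with 630 and 393 counts. The sums of 7 B and NK cell markers (4.25 to 9.5 and 6.98 to 9.33 CPM) and of 10 endothelial markers (7.15 to 10.03 and 9.3 to 12.8 CPM, with Vwf called higher) overlapped. That of 12 fibroblast and stellate cell markers was 2283 to 2446 and 2069 to 2141 CPM, with Col1a2 higher and Pdgfrb and Col3a1 lower. Most of this sum was Col3a1 alone, at 2249 ± 57.5 CPM without and 1990 ± 30.1 CPM with T cells.

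Of the 79 family members, 30 had enough counts to be tested, 28 had at least 1 count but were not tested and 21 had 0 counts in every library. Mmp8, Mmp12, Mmp10, Mmp9, Mmp14, Mmp24, Adamts4 and Adamts7 rose after co-culture. Mmp28, Mmp19, Mmp13, Mmp3, Adamts6, Adamts1, Adamts14, Adam9 and Timp1 fell. These 8 rises and 9 falls passed edgeR's quasi-likelihood test at an adjusted p under 0.05 over all genes tested. They make up 56.7% of the 30 tested members, while 33.5% of the 12666 tested genes were called, 17.4% higher and 16.1% lower. Mmp8 and Mmp12 passed the low-count filter only through the co-culture libraries, in which they are high. The median log2 fold change of the tested members was -0.0028, beside 0.0085 over all tested genes. The median size without regard to sign was 0.30 beside 0.17. The co-culture libraries all lay above the untreated ones for 7 tested members and all below for 6, where 12.6% and 11.1% of tested genes did so (23.8% in either direction). Because the RNA is of the whole culture, fewer cells of a type and less RNA per cell cannot be told apart.

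Compared per gene length, as FPKM (the authors' values scaled to gene length and library total), the inhibitors Timp2 and Timp1 stood at the top of the family, while Timp3 and Timp4 were far lower, at 0.0158 and 0.017 FPKM in untreated cells. Timp2 was at 191 ± 5.14 FPKM in untreated cells and 187 ± 2.93 after co-culture, followed by Timp1, Mmp14 and Mmp10 in both groups. Timp2 alone held 32.3 to 33.1% of the summed FPKM of the family in untreated libraries and 31.6 to 33.6% in co-culture libraries. The summed FPKM of the 23 Mmp genes ran from 156 to 168 without T cells and from 173 to 183 with them. For the 4 Timp genes the ranges were 290.4 to 310.2 and 269 to 287. Neither pair of ranges overlapped. The Mmp sum was higher and the Timp sum lower after co-culture, whereas the Adam sums overlapped (81.97 to 86.8 and 72.5 to 86.97). Single genes carried much of these changes, so the sums do not show a shift of a whole class. The mean FPKM of Mmp10 went from 28.9 to 44.2 and that of Timp1 from 107.7 to 88.6. Of the called Mmp genes, 6 rose and 4 fell. The Adamts sums were 39.2 to 41.6 without and 42.1 to 45.5 with T cells. FPKM are not TMM-scaled, and the TMM factors were 0.977 to 1.002 in untreated and 0.989 to 1.021 in co-culture libraries. The Adamts ranges lie so close that their separation depends on this scaling, and no rise of the Adamts sum is claimed. Of the called Adamts genes, 2 rose and 3 fell.

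**Figure D1:**
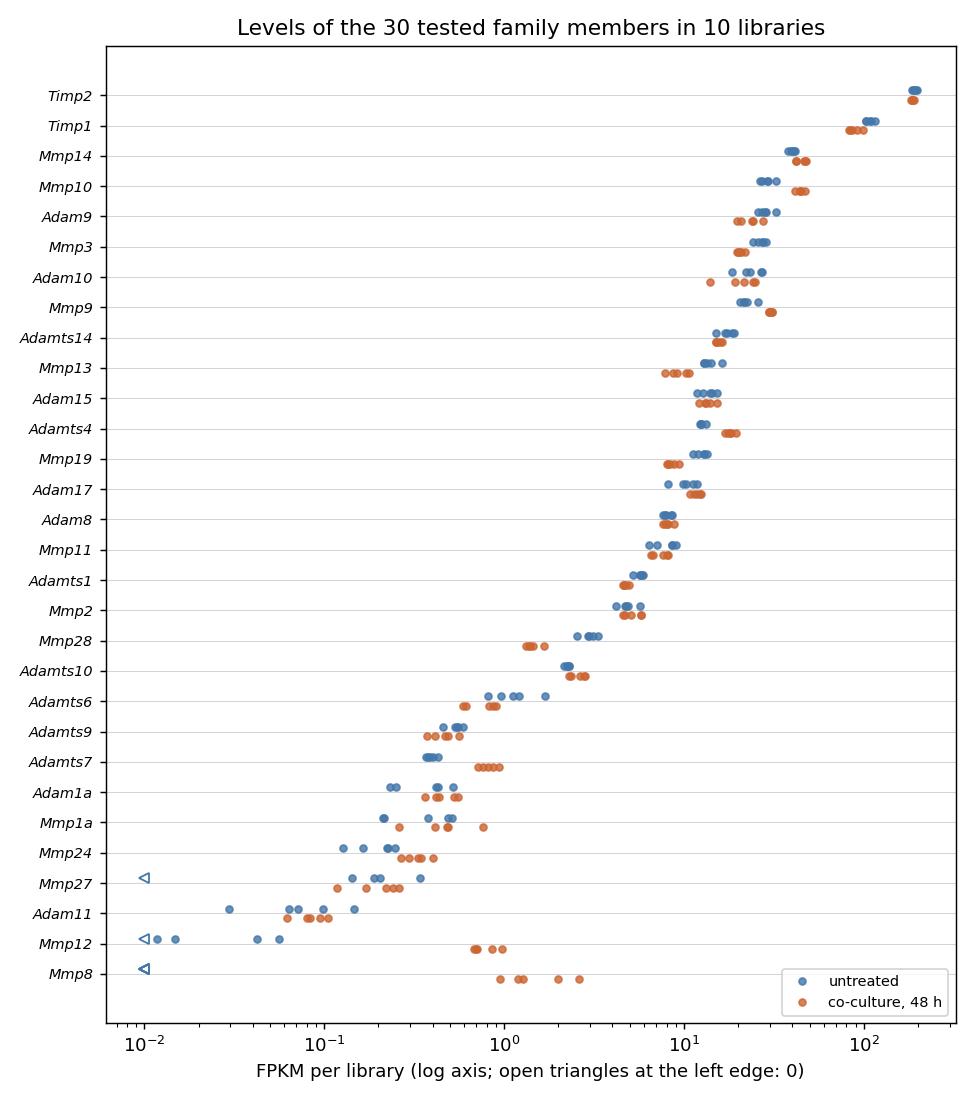
FPKM of the 30 tested members in each library on a log axis, ordered by their mean in untreated cells (blue, untreated; orange, co-culture; open triangles at the left edge mark 0). Timp2 leads in all 10 libraries, and Mmp8 and Mmp12 stand out as the members near or at 0 in untreated cells.

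Among the inhibitors, Timp1 fell and Timp2 did not pass. Timp1 (ENSMUSG00000001131, chrX:20870166-20874735 in mm10), which blocks most secreted Mmp enzymes, was at 151, 143, 145, 153 and 163 CPM in the 5 untreated libraries. It was at 125, 138, 114, 117 and 113 CPM in the 5 co-culture libraries, all of which lay below every untreated one. The log2 fold change was -0.31 ± 0.0609 (SE, edgeR adjusted p = 0.00152). Timp1 lies inside the gene Syn1, which runs on the opposite strand and had 5228 counts against 20619 for Timp1, and whether counting used strand is not given. Timp2, which also helps Mmp14 to activate Mmp2, was at 807, 771, 789, 774 and 811 CPM without T cells and 739, 781, 755, 743 and 767 CPM with them. These groups overlapped, and its log2 fold change of -0.06 ± 0.0372 missed the threshold (edgeR adjusted p = 0.22). Timp3, a matrix-bound inhibitor that also acts on ADAM17 and ADAMTS enzymes, had 11 summed counts in untreated and 39 in co-cultured cells, a ratio of 3.7 after scaling to the group totals (exact 95% binomial interval 1.86 to 8.02). It was too low for the filter, and without a filter it did not pass (log2 fold change 1.77, edgeR adjusted p = 0.0654; DESeq2 adjusted p = 0.0525). Timp4 had 8 and 2 summed counts. Such intervals cover counting error only.

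Members with opposite changes lay side by side in the genome. A block of 10 Mmp genes spans 427 kb of chromosome 9 (chr9:7272514-7699585 in mm10), with 1 other gene, AV064505, at 0 counts inside it. In genomic order these are Mmp13, Mmp12, Mmp1b, Mmp3, Mmp1a, Mmp10, Mmp8, Mmp27, Mmp20 and Mmp7. Mmp12, Mmp10 and Mmp8 rose and Mmp13 and Mmp3 fell, with a gene that rose between those that fell. Mmp1a and Mmp27 were tested and not called, Mmp1b was too low, and Mmp20 and Mmp7 had 0 counts.

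**Figure D2:**
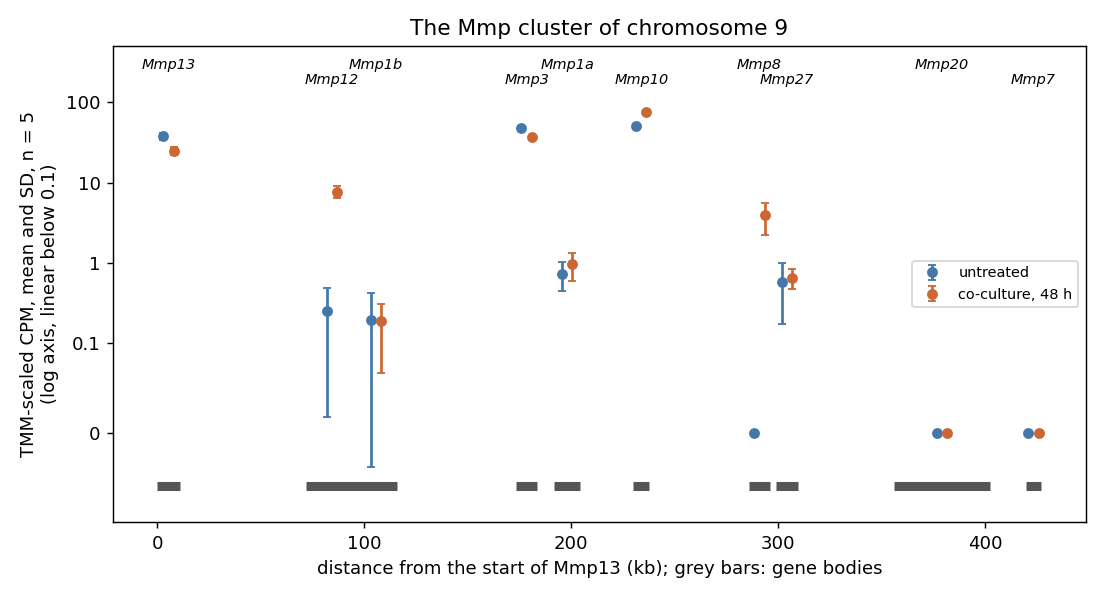
Mean and SD of TMM-scaled CPM (n = 5) of the 10 Mmp genes of the chromosome 9 block against distance from the start of Mmp13 in kb, with gene bodies as grey bars, blue for untreated and orange for co-culture (log axis, linear below 0.1). Mmp13 and Mmp3 are lower after co-culture, Mmp12, Mmp10 and Mmp8 are higher.

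Mmp10, a stromelysin that cuts proteoglycans, laminin and other Mmp precursors (ENSMUSG00000047562, chr9:7502352-7510238), was at 55.8, 50.97, 46.4, 50.98 and 47.6 CPM in untreated cells. It was at 75.4, 82.4, 75.1, 74.3 and 69.5 CPM after co-culture, without overlap. It rose 1.5-fold (0.58 ± 0.0625 with its SE on the log2 scale, edgeR adjusted p = 1.37e-05). Mmp3, its closest relative in the stromelysin group (chr9:7445822-7455972), was at 48.7, 51.5, 49.9, 44.5 and 47.4 CPM in untreated and 36.5, 36.3, 36.96, 38.3 and 34.6 CPM in co-cultured libraries. All 5 co-culture values of Mmp3 were below all untreated ones, and the log2 fold change was -0.41 ± 0.0581 (edgeR adjusted p = 0.000151). The ratio of Mmp10 to Mmp3 FPKM within a library, which needs no scaling between libraries, was 1.2, 1.03, 0.971, 1.2 and 1.05 without T cells and 2.16, 2.37, 2.13, 2.03 and 2.1 with them. These stromelysins thus went from about equal levels to an excess of Mmp10 in each of the 5 co-culture libraries. The separation of the ratios follows from the rise of Mmp10 and the fall of Mmp3. Reads that match several of these related genes may have been divided among them by the authors' counting.

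Mmp13, a collagenase that opens fibrillar collagen (chr9:7272514-7283333), was at 37.9, 43.9, 36.3, 35.2 and 35.3 CPM in untreated libraries and at 28.1, 23.6, 20.8, 24.05 and 27.1 CPM in co-culture libraries. It fell without overlap by 0.61 on the log2 scale (SE 0.0917, edgeR adjusted p = 0.000229). The FPKM ratio of Mmp10 to Mmp13 was 1.81 to 2.29 in untreated and 3.99 to 5.62 in co-cultured libraries, which again follows from their opposite changes. Mmp11, a stromelysin-like enzyme encoded on chromosome 10, was at 32.4 ± 4.55 CPM without and 29.7 ± 3.18 CPM with T cells and was not called (edgeR adjusted p = 0.381).

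Mmp12 and Mmp8 went from near 0 to a low but clear level. Mmp12, the elastase of macrophages (chr9:7344381-7369499), had 9, 6, 2, 0 and 2 counts in the 5 untreated libraries and 106, 141, 90, 97 and 147 after co-culture. In CPM it went from 0.251 ± 0.233 to 7.72 ± 1.29 (n = 5), which is 4.91 ± 0.347 on the log2 scale (edgeR adjusted p = 3.39e-07). Mmp8, the collagenase stored in neutrophil granules (chr9:7558429-7568486), had 0 counts in every untreated library and 35, 81, 38, 92 and 47 after co-culture. Over the summed libraries it was at least 102-fold higher, taking 3 counts as the limit for untreated cells (edgeR adjusted p = 3.17e-05). Its co-culture values ran from 2.28 to 6.3 CPM and so differed more between libraries than those of Mmp12, from 6.65 to 9.53 CPM. The last 1261 bases of Mmp12 overlap Mmp1b on the opposite strand, which had 30 counts in all.

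Some leukocyte markers differed as well. Of 15 macrophage markers, 6 were tested and 4 rose, Csf1r and Cd14 among them. Csf1r and Adgre1 passed the low-count filter through the co-culture libraries, in which they are high. The summed level of the 15 macrophage markers was 58.8 to 65.9 CPM in untreated and 91.9 to 109.7 CPM in co-cultured libraries. Much of it came from Cd14 and Cd68, which were present without T cells. Lyz2, the lysozyme of myeloid cells, went from 0.931 ± 0.25 to 18.2 ± 2.15 CPM and Adgre1, a macrophage surface receptor, from 0.162 ± 0.102 to 3.66 ± 0.482 CPM (n = 5). Cd68 was at 25.1 ± 2.83 CPM without and 25.1 ± 1.51 CPM with T cells (edgeR adjusted p = 0.968). Clec4f had 0 counts in all 10 libraries, and C1qa, C1qb and Vsig4 had 0 in untreated and 14, 20 and 1 summed counts in co-cultured cells. Of 12 neutrophil markers only Ly6g was tested, and it fell from 4.14 ± 0.768 to 2.12 ± 0.488 CPM. The summed level of that list was 3.53 to 6.35 CPM and 2.61 to 4.94 CPM. The granule genes Mpo and Elane and the neutrophil gene Retnlg had 0 counts in all 10 libraries. S100a8 had 6 summed counts without and 61 with T cells, and Itgam had 1 and 55. The granule gene Ltf went the other way, with 35 and 10, and its co-culture libraries all lay below the untreated ones. The part of other cells in the rises of Mmp8 and Mmp12 was not tested.

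**Figure D3:**
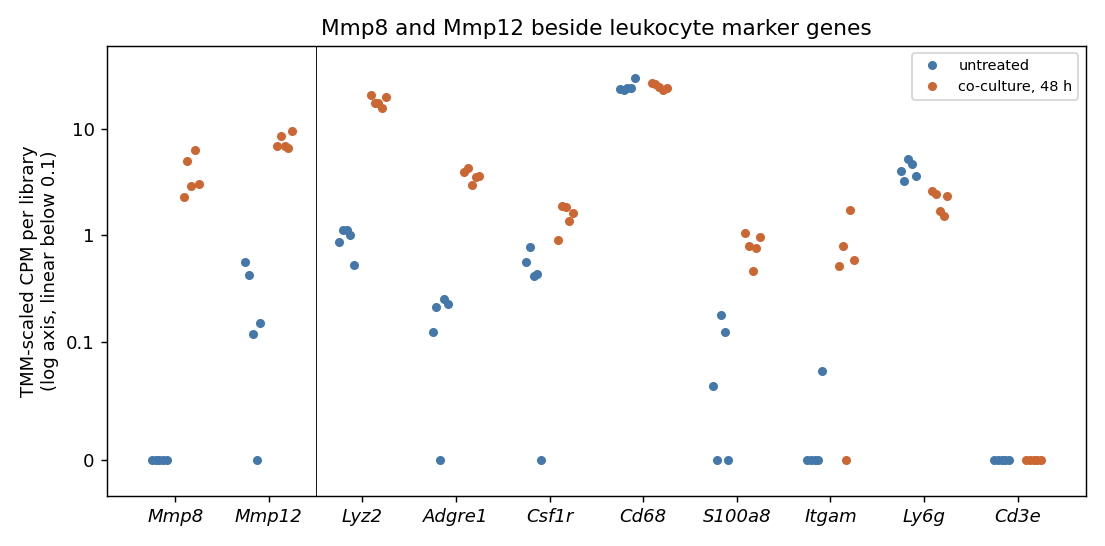
TMM-scaled CPM per library of Mmp8 and Mmp12 (left of the line) and of macrophage, neutrophil and T cell markers (log axis, linear below 0.1; blue, untreated; orange, co-culture). Mmp8, Mmp12, Lyz2 and Adgre1 are higher and Ly6g is lower in all 5 co-culture libraries, Cd68 overlaps and Cd3e is at 0 throughout.

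The bases upstream of the 5 called genes of the block are shown because neighbours with opposite changes can be compared letter by letter. Each line gives the 250 bases before the gene's start in RefSeq on GRCm38.p6, on the plus strand, from 5′ to 3′, and capitals mark TGANTCA, the element bound by AP-1 (Fos and Jun proteins), and AGGAAG or its reverse complement CTTCCT, the PEA3 element bound by Ets proteins. Both strands were searched, and no marked elements overlap.
Mmp13, fell (chr9:7272264-7272513): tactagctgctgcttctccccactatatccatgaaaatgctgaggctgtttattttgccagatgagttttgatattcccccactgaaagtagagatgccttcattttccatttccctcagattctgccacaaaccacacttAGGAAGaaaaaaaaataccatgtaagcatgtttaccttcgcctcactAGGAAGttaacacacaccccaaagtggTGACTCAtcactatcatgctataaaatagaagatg
Mmp12, rose (chr9:7344147-7344396): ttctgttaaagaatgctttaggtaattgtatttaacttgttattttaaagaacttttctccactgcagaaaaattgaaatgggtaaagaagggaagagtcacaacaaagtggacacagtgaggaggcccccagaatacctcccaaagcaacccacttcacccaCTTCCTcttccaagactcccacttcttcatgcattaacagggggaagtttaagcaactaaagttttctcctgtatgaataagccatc
Mmp3, fell (chr9:7445572-7445821): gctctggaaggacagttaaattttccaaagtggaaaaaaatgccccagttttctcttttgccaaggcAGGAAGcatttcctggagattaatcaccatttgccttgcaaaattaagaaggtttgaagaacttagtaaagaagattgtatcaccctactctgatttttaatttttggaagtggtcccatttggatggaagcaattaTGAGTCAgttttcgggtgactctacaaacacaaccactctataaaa
Mmp10, rose (chr9:7502092-7502341): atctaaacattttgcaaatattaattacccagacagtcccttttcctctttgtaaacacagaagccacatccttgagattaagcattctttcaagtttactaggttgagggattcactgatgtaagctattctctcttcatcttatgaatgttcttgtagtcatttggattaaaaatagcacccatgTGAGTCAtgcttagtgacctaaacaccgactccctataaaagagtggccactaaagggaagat
Mmp8, rose (chr9:7558179-7558428): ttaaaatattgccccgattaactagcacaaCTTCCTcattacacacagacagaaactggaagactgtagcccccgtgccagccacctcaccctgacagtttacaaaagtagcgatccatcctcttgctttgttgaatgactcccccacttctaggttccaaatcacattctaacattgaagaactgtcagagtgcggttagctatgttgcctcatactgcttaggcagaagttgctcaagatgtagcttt
The AP-1 letters start 35 bases before the start of Mmp13, 46 before that of Mmp3 and 63 before that of Mmp10, and they are in neither the Mmp12 nor the Mmp8 window. Thus Mmp10, which rose, and Mmp3 and Mmp13, which fell, all hold them. In the whole block 7 of 10 windows hold TGANTCA, those of Mmp1b, Mmp1a, Mmp20 and Mmp7 included, against 4 of the 39 other members with an entry and 6.75% of 32851 such windows over all genes. AGGAAG was present in the Mmp13, Mmp12, Mmp3 and Mmp8 windows and in 29.5% of all windows. A match of letters is not evidence of binding, and a missing one says only that these letters are not in this window.

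Of the gelatinases, Mmp9 rose and Mmp2 did not pass. Mmp9, which cuts denatured collagen and basement membrane collagen (ENSMUSG00000017737, chr2:164940780-164955850), was at 84.98, 81.1, 89.6, 86.8 and 104 CPM in untreated cells. With T cells it was at 117, 119, 116, 119 and 119 CPM, a narrow range above every untreated value. The log2 fold change was 0.40 ± 0.05996 (SE, edgeR adjusted p = 0.000207). The precursor of Mmp9 is known to bind Timp1, and the FPKM ratio of Mmp9 to Timp1 within a library was 0.198, 0.199, 0.216, 0.199 and 0.224 in untreated and 0.328, 0.301, 0.358, 0.358 and 0.369 in co-cultured libraries. These ratios did not overlap, which follows from the rise of Mmp9 and the fall of Timp1 and is no separate result. Mmp2 was at 14.8 ± 1.66 CPM without and 15.6 ± 1.65 CPM with T cells (log2 fold change 0.08 ± 0.096, edgeR adjusted p = 0.587).

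**Figure D4:**
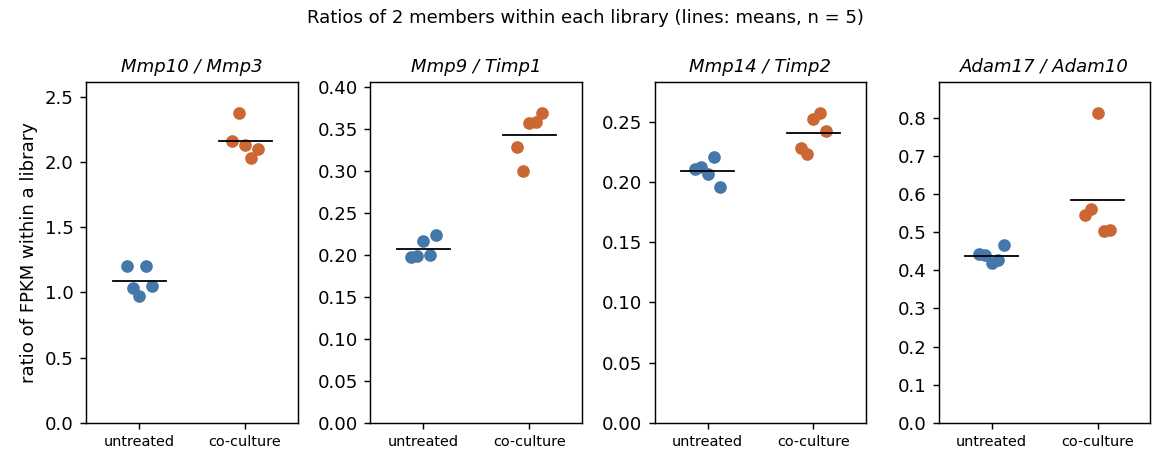
Ratios of the FPKM of 2 members within each library, 5 untreated (blue) and 5 co-culture (orange) libraries, with lines at the means. The co-culture ratios lie above the untreated ones in each of the 4 panels. For Mmp10 to Mmp3 and Mmp9 to Timp1 this follows from the opposite changes of both genes. The pairs were chosen after values were seen, so the separation in a panel is no test of a change. Of these 4 ratios the means differ most for Mmp10 to Mmp3 and least for Mmp14 to Timp2.

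Mmp14, the main membrane-bound collagenase and activator of Mmp2 (chr14:54431612-54441265), was the most abundant enzyme of the family per length, at 39.9 ± 1.38 FPKM in untreated and 44.97 ± 2.75 in co-cultured cells. Its CPM were 240.4, 231, 230.1, 241 and 224 without and 238, 246, 268, 269 and 262 with T cells, and the groups overlapped. Its rise was small, at 0.14 ± 0.0464 on the log2 scale (edgeR adjusted p = 0.035), and the call was lost in 6 of 10 fits that left out 1 library, without the low-count filter and with a replicate block (adjusted p from 0.0142 to 0.0993 over all alternatives). The FPKM ratio of Mmp14 to Timp2 was 0.196 to 0.221 in untreated and 0.223 to 0.257 in co-cultured libraries, without overlap. This pair was chosen after values were seen, and its separation is no test. Mmp24, another membrane-bound enzyme known from neurons, went from 0.993 ± 0.253 to 1.62 ± 0.275 CPM (n = 5, log2 fold change 0.70 ± 0.218, edgeR adjusted p = 0.0239). It lost its call in 4 of 10 fits without 1 library and in 3 of 8 others (adjusted p from 0.0173 to 0.0677), and it overlaps BC029722 on the other strand, which had 7556 counts against 198.

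Among the called falls that of Mmp28 was the largest by log2 fold change. Mmp28 is a secreted enzyme of epithelia (chr11:83440768-83463071). It was at 17.7, 15.4, 17.9, 20.4 and 19.1 CPM in untreated libraries and at 9.88, 8.47, 8.59, 7.81 and 8.11 CPM in co-culture libraries, so that all 5 were below 15.4 CPM, the lowest untreated value. Its log2 fold change was -1.08 ± 0.0934 (SE, edgeR adjusted p = 2.10e-06). Mmp19, which cuts basement membrane proteins, was at 46.04, 38.3, 44.6, 41.6 and 45.2 CPM in untreated and 29.5, 28.1, 27.3, 31.2 and 28.1 CPM in co-cultured libraries. It fell without overlap (log2 fold change -0.58 ± 0.0684, edgeR adjusted p = 3.03e-05), and 789 of its bases overlap Tmem198b on the other strand.

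**Figure D5:**
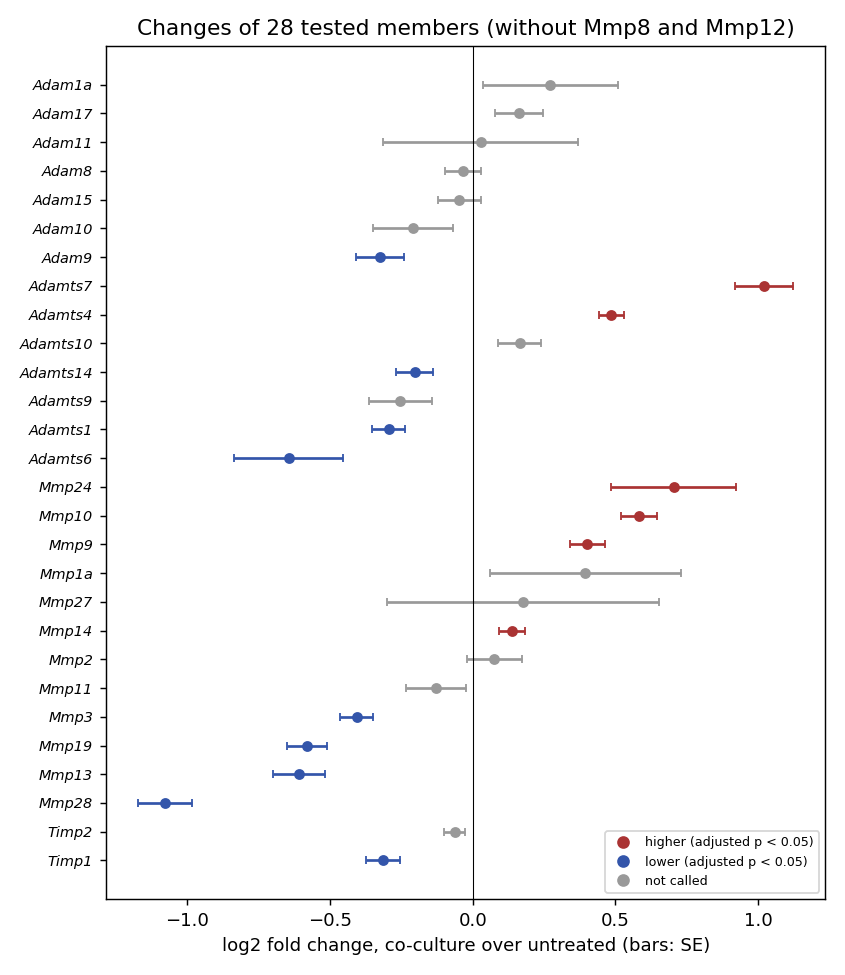
Log2 fold change with its SE, co-culture over untreated, for 28 tested members (Mmp8 and Mmp12, near 0 in untreated cells, are left out). Red marks rises and blue marks falls at an edgeR adjusted p under 0.05, and grey marks members that did not pass; Adamts7 is highest and Mmp28 lowest.

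Of the ADAM genes, 1 of 7 tested was called, beside 33.5% of all tested genes. This was Adam9, a sheddase of growth factor precursors, which fell. Adam9 (chr8:24949611-25016922) was at 184, 154, 147, 165 and 163 CPM in untreated and 135, 113, 133, 153 and 116 CPM in co-cultured libraries, with overlap (log2 fold change -0.33 ± 0.0837, edgeR adjusted p = 0.00909). Adam17, which releases tumour necrosis factor and ligands of the epidermal growth factor receptor, was at 88.03, 129, 123, 109.6 and 113 CPM without and 126, 119, 122, 132 and 129.8 CPM with T cells. It did not pass (log2 fold change 0.16 ± 0.0839, edgeR adjusted p = 0.162). Adam10, which cuts Notch receptors and cadherins, was at 115, 169, 169.7, 148 and 139.8 CPM without and 133, 122, 86.7, 152 and 148 CPM with T cells and did not pass either (log2 fold change -0.21 ± 0.14, edgeR adjusted p = 0.282). Co-culture replicate 3 was the lowest of all 10 libraries for Adam10. The FPKM ratio of Adam17 to Adam10 was 0.443, 0.439, 0.418, 0.427 and 0.467 in untreated libraries. In co-cultured libraries it was 0.546, 0.561, 0.812, 0.504 and 0.505, with the top value in co-culture replicate 3. These ratios did not overlap, but neither gene was called and the pair was chosen after values were seen. Their separation is therefore no test of a shift between Adam17 and Adam10. Adam15 was at 150.1 ± 15.03 CPM without and 145 ± 12.6 CPM with T cells and Adam8, a leukocyte sheddase also made by tumour cells, at 52.6 ± 3.01 CPM without and 51.4 ± 3.52 CPM with T cells, and neither was called (edgeR adjusted p = 0.675 and 0.721). Adam1a and Adam11 had fewer than 2 CPM in each library. The other 26 Adam genes, many of them known from testis, were not tested, and 16 had 0 counts throughout.

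ADAMTS genes went both ways. Adamts7, which cuts cartilage oligomeric matrix protein (chr9:90163069-90208071), was at 4.98, 4.31, 4.75, 4.5 and 4.59 CPM in untreated and 9.88, 9.51, 8.2, 8.63 and 10.7 CPM in co-cultured libraries. It rose 2.03-fold without overlap (log2 fold change 1.02 ± 0.101, edgeR adjusted p = 6.65e-06). Adamts4, an aggrecanase (chr1:171250421-171260637), was at 68.2, 64.2, 63.7, 65.7 and 65.1 CPM without and 88.9, 88.0, 93.2, 97.6 and 90.4 CPM with T cells, again without overlap (log2 fold change 0.49 ± 0.0452, edgeR adjusted p = 3.84e-06). Adamts7 overlaps Tbc1d2b on the other strand over 6045 bases, and Tbc1d2b had 2069 counts against 1059. Adamts1, which cuts versican, was at 36.9, 37.4, 36.4, 36.99 and 33.4 CPM in untreated and 29.7, 29.6, 29.1, 30.8 and 28.5 CPM in co-cultured libraries. It fell without overlap (log2 fold change -0.29 ± 0.0577, edgeR adjusted p = 0.00165). Adamts6 fell from 5.64 ± 1.56 to 3.62 ± 0.648 CPM (n = 5; adjusted p in edgeR = 0.0186), with an overlap of the groups. Adamts14, which trims procollagen, went from 104 ± 9.93 to 90.6 ± 4.15 CPM (edgeR adjusted p = 0.0277) and lost its call in 5 of 10 fits without 1 library (adjusted p from 0.00309 to 0.0677 over all alternatives). Adamts10 and Adamts9 were tested and not called (edgeR adjusted p = 0.109 and 0.0959); Adamts9 passed without co-culture replicate 5 (adjusted p = 0.0352, the lowest of its alternatives, up to 0.193).

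Among the 49 members that were not tested, most held a few counts or none. Adamts17 had 12 summed counts in untreated and 36 in co-cultured cells, a ratio of 3.13 (95% interval 1.59 to 6.62). It was the only untested member that edgeR called without a low-count filter (log2 fold change 1.55, edgeR adjusted p = 0.022; DESeq2 adjusted p = 0.0399). Adam23, an integrin ligand without protease activity, had 22 and 39 summed counts (ratio 1.85, 95% interval 1.07 to 3.28). In the other direction, Adamts5, an aggrecanase, had 32 and 15 (ratio 0.49, 0.246 to 0.931), and Mmp25, a leukocyte membrane enzyme, 25 and 11 (ratio 0.46, 0.204 to 0.969). Adam18 had 10 counts without and 0 with T cells. The intervals of Adamts12, Mmp23, Adamts16, Adam12 and Mmp1b included 1, and that of Adam4, with 9 and 20 counts, began at 1.01. Mmp15 had 7 and 3 counts, and Adamts13, the liver-made protease of von Willebrand factor, had 0 and 1. The remaining untested members with counts had fewer than 10 in each group. Outside the Adam genes, those at 0 in every library were Mmp7, Mmp16, Mmp20, Adamts18 and Adamts19.

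Genes around the family were read from lists of known partners. The lists themselves were not tested, and their counts stand beside the 17.4% of all tested genes called higher and 16.1% called lower, with a median log2 fold change of 0.0085. Some listed genes, such as Lrp2, Tnf, Csf1r, App and Col1a2, passed the low-count filter through the co-culture libraries, in which they are high. Their rises are part of the list counts. Of 7 tested inhibitors and clearance receptors, 3 rose and 4 were not called, with a median log2 fold change of 0.03. Thbs1, a matrix glycoprotein that binds Mmp precursors, rose from 22.9 ± 3.07 to 75.3 ± 3.82 CPM (n = 5; adjusted p in edgeR = 1.38e-08), and Lrp1, the receptor that takes up many secreted metalloproteinases, from 629.8 ± 46.9 to 737 ± 45.8 CPM (edgeR adjusted p = 0.00983). Lrp2 went from 0.216 ± 0.235 to 1.4 ± 0.247 CPM, near the limit of detection. Reck, a membrane-anchored inhibitor, was at 2.35 ± 0.135 CPM without and 2.21 ± 0.737 CPM with T cells and was not called (edgeR adjusted p = 0.787). Among 11 tested genes of precursor activation, 5 rose and 1 fell (median 0.17). Plau, the protease urokinase that makes plasmin, rose from 22.2 ± 2.91 to 31.3 ± 2.01 CPM (n = 5; adjusted p in edgeR = 0.000771). Serpine2, an inhibitor of such proteases, rose by 0.29 on the log2 scale and Plat, the tissue plasminogen activator, fell by 0.18. Furin, the convertase that removes propeptides of ADAM and membrane Mmp proteins, was at 212 ± 18.7 CPM without and 218 ± 5.78 CPM with T cells (edgeR adjusted p = 0.686).

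Of 11 tested genes that carry or bind ADAM proteins, 2 rose and 1 fell (median 0.02). Rhbdf1, which brings ADAM17 to the cell surface, rose from 145 ± 13.2 to 185 ± 10.4 CPM (n = 5; adjusted p in edgeR = 0.000981), while its relative Rhbdf2 was at 152 ± 15.3 CPM without and 155 ± 6.78 CPM with T cells (edgeR adjusted p = 0.823). Mad2l1, better known from the mitotic checkpoint, rose by 0.52 and Tspan17, a tetraspanin partner of ADAM10, fell by 0.46 on the log2 scale. Of 28 tested genes whose products ADAM10 or ADAM17 shed, 12 rose and 4 fell (median 0.14). The rises include Tnf, Csf1r and App, which passed the low-count filter through the co-culture libraries. Vcam1, an adhesion molecule, rose from 199.7 ± 20.1 to 300.2 ± 12.6 CPM and Il6st, the shared receptor chain of interleukin 6 cytokines, from 205 ± 8.83 to 246 ± 20.7 CPM (n = 5; adjusted p in edgeR = 1.52e-05 and 0.00407). The Notch ligand Dll1 fell from 23.6 ± 0.928 to 14.1 ± 1.26 CPM (edgeR adjusted p = 6.62e-06). Icam1 went from 0.789 ± 0.222 to 6.15 ± 0.663 CPM, and Tnf, the substrate for which ADAM17 was named, from 0 to 146 summed counts. Csf1r, a macrophage marker, is on this list as well, and the part of other cells in the rises of Icam1 and Tnf was not tested. Csf1 rose by 0.18 and Notch2 fell by 0.16 on the log2 scale; the call of Notch2 was lost with library totals alone and with the replicate block.

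Of 22 tested matrix substrates, 14 rose and 2 fell, with a median log2 fold change of 0.26, where 17.4% of all tested genes were called higher and 16.1% lower. The basement membrane genes Col4a1 and Col4a2 rose from 869.7 ± 42.7 to 1090.4 ± 28.9 and from 473 ± 31.5 to 623 ± 25.4 CPM, and Hspg2, the proteoglycan perlecan, from 1139 ± 102 to 1464 ± 49.1 CPM (n = 5; adjusted p in edgeR = 9.02e-05, 6.46e-05 and 0.000391). Tnc, the glycoprotein tenascin, rose from 105 ± 3.46 to 178 ± 6.87 CPM. Lamb1, Lama5 and Col18a1 rose by 0.24, 0.21 and 0.28 on the log2 scale. Col1a2 went from 0.54 ± 0.155 to 3.27 ± 0.387 CPM. Spp1, the secreted phosphoprotein osteopontin, fell from 1695 ± 151 to 504 ± 30.1 CPM and Col3a1, a fibrillar collagen, from 2249 ± 57.5 to 1990.0 ± 30.1 CPM (edgeR adjusted p = 2.00e-09 and 0.00289). The small rises of Fn1 and Col5a1, at 0.17 and 0.14, lost their calls in 7 and 6 of 10 fits without 1 library (adjusted p from 0.0139 to 0.0981 and from 0.00383 to 0.0783 over all alternatives).

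Transcription factors known to act on Mmp genes were split, with 6 rises and 3 falls among 20 tested (median 0.11). Of the AP-1 genes, Jun rose from 26.8 ± 1.41 to 35.3 ± 2.09 CPM and Fosl1 from 90.96 ± 5.65 to 112 ± 7.44 CPM, while Jund fell from 209.9 ± 13.3 to 174 ± 12.7 CPM (n = 5; adjusted p in edgeR = 0.000439, 0.00161 and 0.00328). Fos and Junb were not called (edgeR adjusted p = 0.983 and 0.808). Etv5, a member of the Ets group that binds the PEA3 element, fell from 78.4 ± 5.11 to 60.8 ± 3.1 CPM, and Nfkb1 rose from 139 ± 4.37 to 166 ± 6.51 CPM (edgeR adjusted p = 0.0002998 and 0.000478). Another Ets gene, Ets1, was called higher, from 27.7 ± 1.48 to 48.6 ± 24.6 CPM (edgeR adjusted p = 0.0287). Its co-culture replicates 2 and 5 were at 70.3 and 80.3 CPM, and the other co-culture libraries at 29.5 to 33.1 CPM. Etv4, Ets2 and Elf3 were not called (edgeR adjusted p = 0.861, 0.211 and 0.0797). Rela and Ctnnb1 were called at 0.15 and -0.16, and each lost its call in 6 of 10 fits without 1 library (adjusted p from 0.00527 to 0.0823 and from 0.0213 to 0.101 over all alternatives).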

How the data were processed

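Gene counts from 10 RNA sequencing libraries were compared, 5 untreated and 5 co-cultured. Per the labels' protocols, each library took 1.3 ug total RNA (kit VAHTS Universal V6). Per the submitters' processing notes, RSEM 1.2.8, HISAT2 2.1.0 and Bowtie2 2.2.5 were used with mm10, with roles unspecified; neither annotation release nor strand setting is given in the sources used here. Counts as deposited are whole numbers per gene and not normalized, per the file headers and values. The deposited FPKM are scaled by the authors to gene length and library total; over 9379 genes with at least 100 counts in each library, the length implied by counts and FPKM differed between libraries by at most 0.000823%, so FPKM served for levels between genes and counts for tests.

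Counts were tested with edgeR 4.0.16 in R 4.3.3 (filterByExpr, TMM scaling, two-sided quasi-likelihood F test) over all 12666 genes that passed the filter, with calls at a Benjamini-Hochberg adjusted p under 0.05. The SE is the absolute log2 fold change divided by the root of F. CPM are TMM-scaled with the SD over 5 libraries. One library's limit for a count of 0, 3 counts, was 0.175 to 0.232 CPM. The test was tried on simulated counts beforehand. Alternatives were other scalings and filters, DESeq2 1.42.0, limma-voom (limma 3.58.1), the replicate number as a block, and leaving out each library.

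The family members, partner lists and marker lists were chosen with earlier results of these data known. Named genes were the called members, 17 members chosen by role, untested members with at least 10 counts in a group, and from each partner list the 3 smallest p and all called ones averaging 100 CPM or more; a few of these are not reported here by name but stay in the counts. Other genes named, the ratios of 2 members and the windows shown were chosen after values were seen. All 79 identifiers were in GENCODE M21, 54 at the same position, so positions are those of the deposited table. RefSeq windows (GRCm38.p6) were found for 49 members, 21 of them tested; motifs were searched in the 250 upstream bases.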

Additional observations from a re-analysis of the deposited data

Results flagged for a closer look

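Among 146 sets of 5 libraries (1 gene in 1 group), 5 held a library far from the other 4, with a gap of more than 0.71 of the whole range; chance gives about 1 in 20. Adamts1 was at 33.4 CPM in untreated replicate 5, below 36.4 to 37.4 in the others, which moves it towards the co-culture values. Col1a2 was at 2.59 CPM in co-culture replicate 5, beside 3.36 to 3.53. Csf1 was at 242 CPM in untreated replicate 2, above 205 to 214. Lrp2 was at 0.635 CPM in untreated replicate 2, above 0.0753 to 0.125. Vcam1 was at 278 CPM in co-culture replicate 3, below 301 to 309.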

How the results depend on the processing

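The counts of called genes moved by less than 1.5 times under every alternative run. The 8 member rises stayed between 6 and 8 and the 9 falls between 8 and 9 when 1 library was left out, and over all genes the 2204 rises and 2044 falls ran from 1849 to 2128 and from 1813 to 2093. The replicate numbers did not pair the libraries: the deviations of same-numbered libraries correlated at -0.0855 to 0.0507, and for 1 of 5 numbers the best-correlated library had the same number. With the replicate block 1762 genes were higher and 1625 lower, among them 6 and 9 members. The other settings gave 2016 to 2648 rises and 1743 to 2151 falls over all genes. Of the tested members, 232 comparisons outside the leave-one-out fits kept direction and call and 5 lost the call, those of Mmp14 and Mmp24; in the leave-one-out fits 278 kept both, 15 lost the call and 1, Adamts9, gained it. The sign turned in 6 leave-one-out fits of members that were never called: Adam11 ran from -0.17 to 0.31 (5 fits) and Mmp27 from -0.11 to 0.52 (1 fit). Among the named partner genes, 14 of 352 other fits and 37 of 440 leave-one-out fits lost a call and none turned. The cause of these lost calls was not tested. Depth limits the 28 members with counts that were not tested, since the exact interval of the Timp3 ratio, from 11 and 39 counts, spans 1.86 to 8.02.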

Other observations

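Zinc proteases outside the Mmp, Adam and Adamts genes went both ways as well. Of 12 tested, 4 rose and 4 fell, with a median log2 fold change of -0.03; over all tested genes 17.4% were called higher and 16.1% lower. Bmp1, which trims procollagen at the opposite end to the ADAMTS enzymes, rose from 216 ± 11.7 to 259 ± 9.97 CPM and Anpep, a membrane aminopeptidase, from 169.6 ± 11.7 to 209.9 ± 4.65 CPM (n = 5; adjusted p in edgeR = 0.000789 and 0.0004003). Ide, the insulin-degrading enzyme, fell from 69.3 ± 3.15 to 59.1 ± 1.85 CPM (edgeR adjusted p = 0.00268). Of 5 tested ADAMTS-like genes, whose products lack the protease domain, Adamtsl4 rose from 40.5 ± 5.35 to 55.5 ± 1.8 CPM (edgeR adjusted p = 0.000801). Adamtsl5 was called lower, at -0.30, and lost the call in 4 of 10 fits without 1 library (adjusted p from 0.01001 to 0.0703 over all alternatives).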
